A study of Homo sapiens with 12 samples.

Results

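The antigen receptor of B cells is a membrane immunoglobulin held together with a heterodimer of *CD79A* and *CD79B*, whose cytoplasmic tails are phosphorylated by SRC-family kinases and then bind the kinase *SYK*. *SYK* and *BTK* act through the adaptor *BLNK* on phospholipase *PLCG2*, and from there calcium release, NFAT, RAS and NF-kB signalling follow. Some phosphatases, and ubiquitin ligases, damp the signal. In chronic lymphocytic leukaemia, a cancer of mature B cells, this pathway is a main survival input and its kinases are drug targets. Transcripts of 41 genes of this pathway, chosen by symbol as receptor chains, coreceptors, kinases, adaptors, effectors and inhibitors, were followed here. All 41 occurred once in each of the deposited count tables, which hold 22441 genes for MEC1 and 17144 for JVM2, with 16052 genes in both, and all 41 passed the filter on low counts in each of the 4 comparisons.

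RNA sequencing of ribosomal RNA-depleted libraries covered 12 samples of MEC1 and JVM2, neoplastic B-cell lines used as models of this leukaemia, with 3 biological replicates in each of 4 groups. MEC1-2B17 and JVM2-2B17 cells stably carried the pcDNA6 vector with the coding sequence of *UGT2B17*, a glucuronidation enzyme, under blasticidin. JVM2-CTRL cells carried the empty vector under the same antibiotic, whereas MEC1-CTRL cells carried a stable shRNA against *UGT2B17* under puromycin, so in MEC1 a higher *UGT2B17* level, the construct and the antibiotic cannot be told apart. The sources used here do not say whether the stable populations were pools or clones, nor that replicates came from separately made populations, so *P*-values measure the spread between these samples, which may be technical. Positions are from GENCODE v44 on GRCh38.

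Libraries held 31762649 to 37744991 counts in MEC1 and 8809179 to 11231330 in JVM2. *UGT2B17* itself stood at 9.87 to 11.2 CPM (counts relative to library size, after scaling all 12 libraries together) in MEC1-CTRL and 19.1 to 21.5 in MEC1-2B17, and at 27.9 to 31.9 in JVM2-CTRL and 37.6 to 48.6 in JVM2-2B17. All 8 B-cell markers examined, 4 of them pathway members, were at 1 CPM or more in every group, summing to 2792 to 4541 CPM. Summed T-cell, myeloid and NK-cell markers reached at most 53.0, 14.6 and 24.6 CPM, with *TRAC* the highest of them, and erythroid markers were at 0. The 5 plasma-cell markers, *IRF4* foremost, summed to 1554 to 1597 CPM in MEC1-CTRL and 2737 to 2799 in MEC1-2B17. In JVM2-CTRL they summed to 3071 to 3089 CPM and in JVM2-2B17 to 2806 to 2948. They did not rise as a set in MEC1-2B17. Mean CPM in MEC1-CTRL and MEC1-2B17 was 1118 and 2285 for *IRF4* and 62.4 and 107 for *SDC1*. It was 351 and 354 for *XBP1*, but fell from 39.5 to 20.2 for *TNFRSF17* and from 2.32 to 0.845 for *PRDM1*. Mean CPM in JVM2-CTRL and JVM2-2B17 was 2079 and 2158 for *IRF4*, 357 and 256 for *SDC1* and 391 and 297 for *XBP1*. For *TNFRSF17* it was 153 and 145, and for *PRDM1* 100 and 33.4. The part of these markers in the results was not tested. JVM2-2B17 replicate 2 stood apart, with 3.52% of 8675 well-counted genes over 0.5 log2 from the mean of the other 2 replicates against 0.0273% to 0.588% in the other 11 libraries, and 6 members (*CBLB*, *CD22*, *CD79A*, *DOK3*, *NFATC2* and *RAC2*) were among them. Where leaving out this library changed a call or moved a called value by over 1.5 times, the value without it is given.

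Between arms, *SYK* fell 2.19-fold in MEC1-2B17, *CR2* was nearly lost and *VAV3* gained in JVM2-2B17, and the other called members moved by less than 2-fold. In such bulk samples, fewer cells with a transcript and less of it per cell cannot be told apart. In MEC1, 27 of the 41 members passed an adjusted *P* of 0.05 (edgeR quasi-likelihood test, Benjamini-Hochberg over all genes tested), 7 higher and 20 lower in MEC1-2B17, against 41.7% of all 16581 genes tested, of which 20.0% were higher and 21.6% lower. In JVM2, 21 members passed, 12 higher and 9 lower, against 29.3% of 13021 genes, of which 14.1% were higher and 15.3% lower. The median log2 fold change of the members was -0.10 in MEC1, where the median of all genes tested was 0.0026, and -0.03 in JVM2, where it was 0.00012. Many calls were small, since 10 of the 27 in MEC1 and 5 of the 21 in JVM2 were under 1.2-fold, and calls of 2-fold or more numbered 1 and 2. Of all genes tested, 5.30% in MEC1 and 6.23% in JVM2 reached that size and the threshold. Called members had arms that did not overlap in CPM, except *ITPR2* in MEC1 and *CD22* in JVM2. The share of all called genes with such arms is not given here, so this adds nothing particular to the members. With 1 library left out at a time, 24 to 28 members passed in MEC1 and 13 to 21 in JVM2, the lowest without JVM2-CTRL replicate 2 and without JVM2-CTRL replicate 3. Of all genes, 2765 of 13182 and 2687 of 13309 passed there, also fewer than with all libraries.

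**Figure D1:**
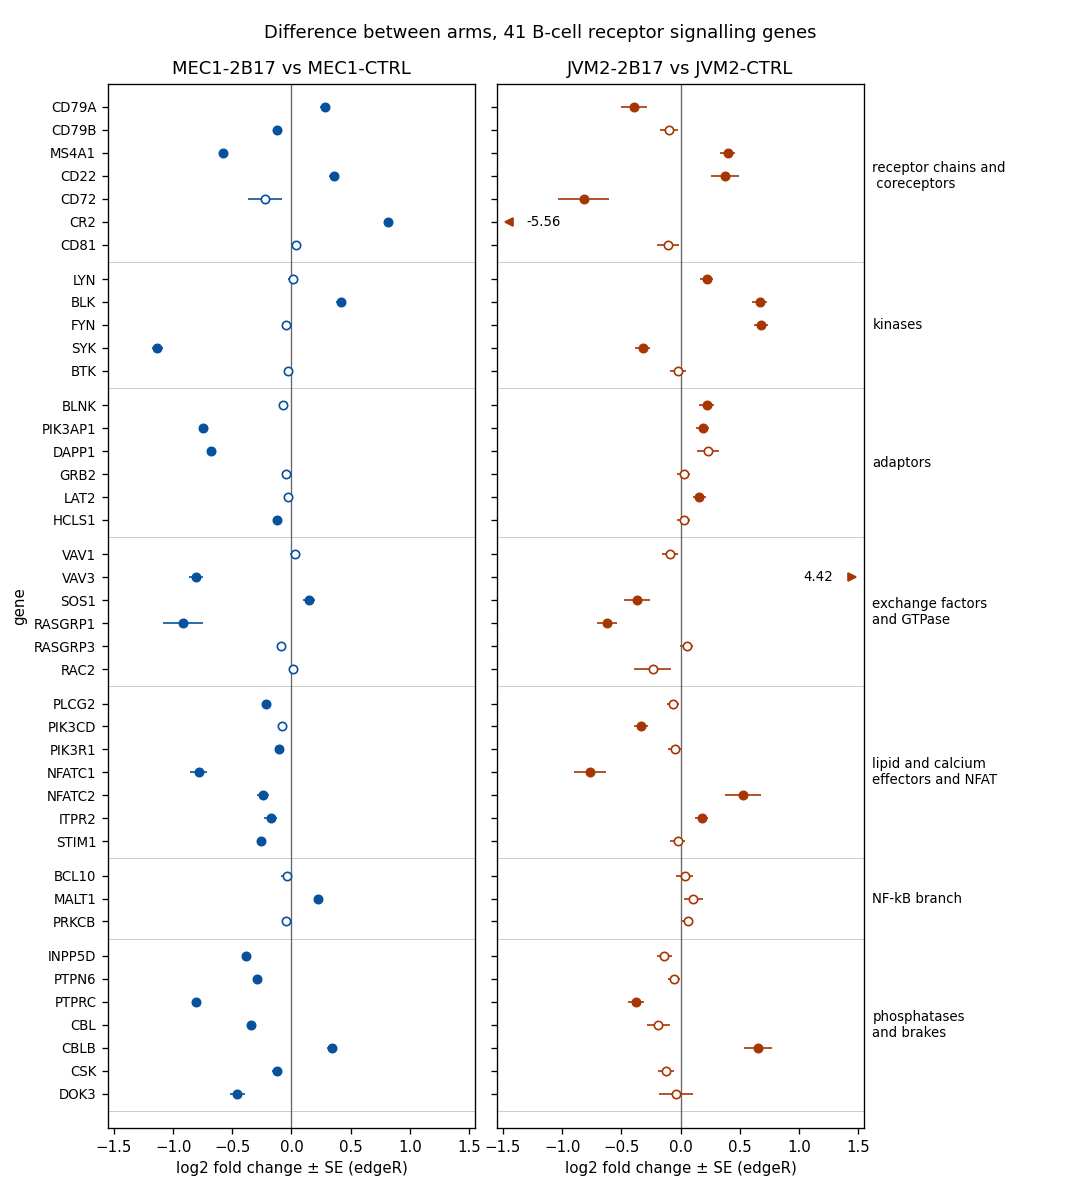
Log2 fold change of 2B17 over CTRL cells (x axis, ± SE from edgeR) of each of the 41 genes, grouped by role, in MEC1 (left) and JVM2 (right), with filled symbols for an adjusted *P* below 0.05 and triangles for values beyond the axis, which are written beside them. In MEC1 20 filled points lie left of 0 and 7 right of it, whereas in JVM2 9 lie left and 12 right.

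Across the lines, 15 members passed in both, where 15.8% of the 12243 genes tested in both lines did. Of the 15, 7 moved the same way (8.37% of all genes) and 8 opposite ways (7.43% of all genes). A further 12 passed in MEC1 alone, 6 in JVM2 alone and 8 (*CD81*, *BTK*, *VAV1*, *GRB2*, *RASGRP3*, *BCL10*, *PRKCB* and *RAC2*) in neither. The shares of all genes in these classes are not given here. The difference of the effect between the lines, tested as the interaction of line and arm over all 12 libraries, passed for 21 members, 4 with a higher value in MEC1 and 17 with a lower value, against 32.0% of 15130 genes, 15.3% higher and 16.7% lower. It passed for 10 of the 18 members called in a single line, a count for which the share of all genes is not given here. For the other 8 the effects are not shown to differ. Without JVM2-2B17 replicate 2 the difference passed for 25 members, 5 higher and 20 lower, against 5063 of 15831 genes, 2466 higher and 2597 lower. The 25 included 3 of those 8, *CBL* (-0.27, edgeR adjusted *P* = 0.0021), *MALT1* (0.23, edgeR adjusted *P* = 0.014) and *PLCG2* (-0.15, edgeR adjusted *P* = 0.046).

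**Figure D2:**
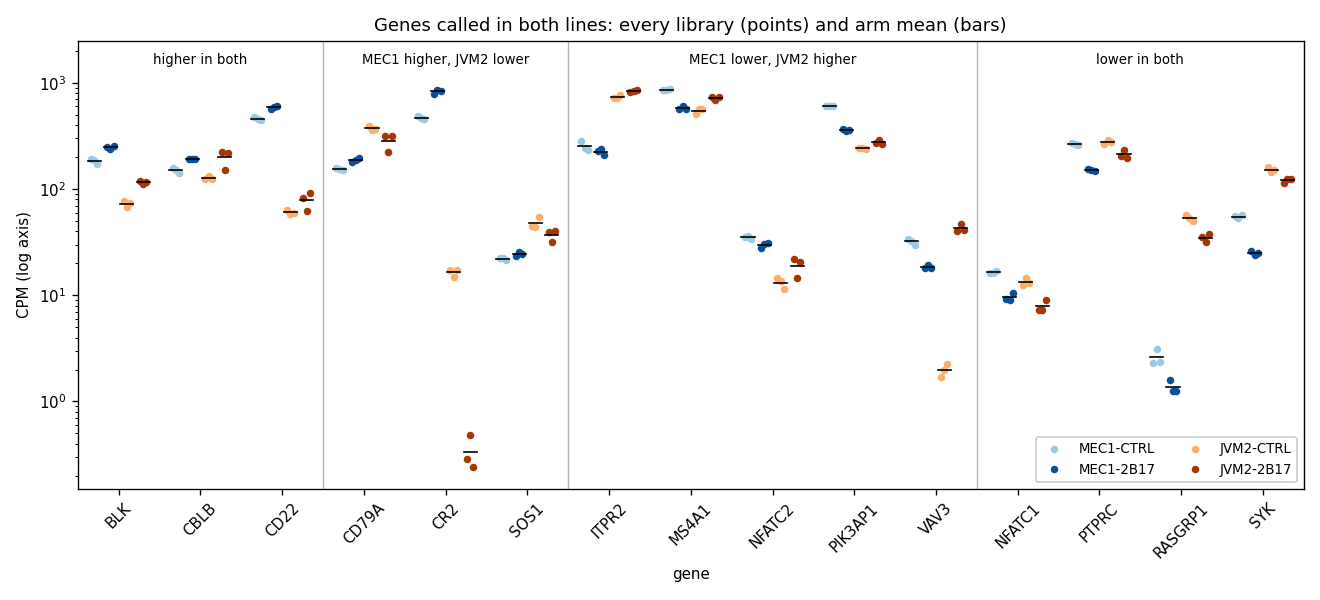
CPM on a log axis of the 15 genes called in both lines, each library as a point and the mean of the 3 replicates as a bar, with genes grouped by the direction of the call in each line. *CR2* drops to 0.24 to 0.484 CPM in JVM2-2B17 and *VAV3* climbs from 1.71 to 2.27 CPM in JVM2-CTRL to 40.4 to 46.9, while all MEC1 libraries stay at 17.9 CPM or more for both genes.

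Among the 7 receptor chains and coreceptors, 3 rose and 2 fell in MEC1-2B17, and 2 rose and 3 fell in JVM2-2B17. Each role used here and below holds only 3 to 7 genes, and 41.7% of all genes tested were called in MEC1 and 29.3% in JVM2. The 300 bases around the RefSeq transcription start (250 before, 50 after, GRCh38.p14) are printed for *CD79A* and *CR2*, which rose in MEC1-2B17 and fell in JVM2-2B17, and for *SYK*, which fell in both. Windows of *CD22* and *VAV3*, also examined, held none of the motifs counted below and are not printed. Their RefSeq starts lay 9926 and 276681 bases inside the GENCODE gene. Among the printed windows, the RefSeq start of *CR2* lay 1304 bases inside its gene. That of *SYK*, with 3 listed starts, was at -187 bases from the GENCODE start. Such windows may miss the start in use. Capitals mark the E box CAGGTG, or its reverse complement CACCTG, as found on either strand.
CD79A, chr19:41877029-41877328, plus strand: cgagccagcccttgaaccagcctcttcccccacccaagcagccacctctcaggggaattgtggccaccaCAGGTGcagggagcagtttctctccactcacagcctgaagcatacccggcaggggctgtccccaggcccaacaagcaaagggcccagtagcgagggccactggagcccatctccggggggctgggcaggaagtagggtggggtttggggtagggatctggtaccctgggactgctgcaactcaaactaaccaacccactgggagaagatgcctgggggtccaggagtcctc
CR2, chr1:207454078-207454377, plus strand: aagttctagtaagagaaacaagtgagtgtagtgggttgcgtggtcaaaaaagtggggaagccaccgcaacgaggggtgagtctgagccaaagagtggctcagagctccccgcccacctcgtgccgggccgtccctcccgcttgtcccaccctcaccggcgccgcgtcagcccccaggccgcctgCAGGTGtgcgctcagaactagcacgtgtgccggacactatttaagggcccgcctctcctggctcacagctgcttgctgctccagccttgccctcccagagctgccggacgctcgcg
SYK, chr9:90801350-90801649, plus strand: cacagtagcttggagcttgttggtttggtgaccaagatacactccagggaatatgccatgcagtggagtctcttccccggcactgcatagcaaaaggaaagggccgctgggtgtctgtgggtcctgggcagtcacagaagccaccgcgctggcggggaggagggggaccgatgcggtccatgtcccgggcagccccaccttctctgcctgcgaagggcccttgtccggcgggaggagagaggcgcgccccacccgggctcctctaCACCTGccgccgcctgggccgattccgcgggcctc
Of the 41 members, 32 had a RefSeq promoter, and CAGGTG occurred on either strand in 14 of them (43.8%), where 20.6% of all 27305 promoters held it. The PU box, a site form of the factor SPI1, GAGGAA occurred in 13 (40.6%, against 27.6% of all), the core CCCNNGGG, part of the site of the B-cell factor EBF1, in 10 (31.3%, against 18.5% of all) and the octamer ATTTGCAT in 1 (3.13%, against 1.82% of all), and none of these 3 occurred in the 3 windows shown. A match describes letters, not a bound site.

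*CD79A*, the signalling chain that carries an activation motif in its tail, read 156, 153 and 153 CPM in replicates 1 to 3 of MEC1-CTRL and 181, 186 and 196 in MEC1-2B17. All MEC1-2B17 libraries were above all controls, a log2 difference of 0.28 (SE 0.037, edgeR adjusted *P* = 5.9e-06). In JVM2 the same gene read 394, 362 and 365 CPM in CTRL and 313, 223 and 317 in 2B17 cells, all lower than the controls, with replicate 2 the lowest. The log2 difference was -0.39 (SE 0.11, edgeR adjusted *P* = 0.018) and -0.24 (edgeR adjusted *P* = 0.00044) without that library. Without JVM2-CTRL replicate 1 or 3 its adjusted *P* was 0.053 to 0.074. The effects in the lines differed by 0.68 (SE 0.12, edgeR adjusted *P* = 2e-04), and by 0.53 without JVM2-2B17 replicate 2.

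Its partner *CD79B* was lower in MEC1-2B17 and not called in JVM2. It read 150, 148 and 147 CPM in MEC1-CTRL and 136, 135 and 138 in MEC1-2B17, a narrow but non-overlapping gap of -0.12 on the log2 scale (SE 0.033, edgeR adjusted *P* = 0.0045), which became 0.067 as an adjusted *P* in a single fit of 12 libraries. In JVM2 the arms overlapped, at 65.5, 71.8 and 63.1 CPM in CTRL and 65.5, 64.0 and 57.8 in 2B17 cells (log2 difference -0.10, SE 0.074, edgeR adjusted *P* = 0.36). Per kilobase of annotated exon, *CD79A* stood at 115 CPM and *CD79B* at 69.7 in MEC1-CTRL, and at 278 and 31.4 in JVM2-CTRL. The size of this gap depends on the exon length used, here that of all annotated exons of each gene. Of the *CD79B* exon bases, 13.6% lie in another annotated gene on the same strand, so its reads are less certain.

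*CR2*, the complement receptor CD21 (ENSG00000117322, chr1:207453024-207489895), gave the largest difference between the lines of any member. It read 488, 463 and 457 CPM in MEC1-CTRL and 791, 865 and 833 in MEC1-2B17, where every library exceeded the controls (1.76-fold, log2 0.82, SE 0.036, edgeR adjusted *P* = 1.9e-12). JVM2 cells gave 17.2, 14.7 and 17.3 CPM in the CTRL arm and 0.29, 0.484 and 0.24 in 2B17 cells, the latter resting on 3, 4 and 2 counts. The ratio of summed counts per library size, 462 against 9, was 49.1 with an exact 95% binomial interval of 25.7 to 108 that covers counting error only, and the fitted log2 difference was -5.56 (SE 0.24, edgeR adjusted *P* = 5.5e-09). The difference between the lines was 6.41 (SE 0.19, edgeR adjusted *P* = 1.6e-15). *CD81*, a tetraspanin coreceptor, was not called in either line, at log2 0.04 (SE 0.037) in MEC1 and -0.10 (SE 0.093) in JVM2, where it was -0.01 without JVM2-2B17 replicate 2.

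*MS4A1*, which encodes CD20, fell in MEC1-2B17 and rose in JVM2-2B17. It read 863, 851 and 880 CPM in MEC1-CTRL and 565, 602 and 573 in MEC1-2B17 (log2 -0.58, SE 0.032, edgeR adjusted *P* = 3.9e-11). The JVM2 values were 507, 563 and 571 CPM in CTRL and 737, 694 and 729 in 2B17 cells (log2 0.40, SE 0.061, edgeR adjusted *P* = 0.00038). The arms did not overlap in either line, and the effects differed by -0.97 (SE 0.068, edgeR adjusted *P* = 8e-10).

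*CD22*, an inhibitory lectin that recruits the phosphatase *PTPN6*, rose in both lines. It read 478, 455 and 445 CPM in MEC1-CTRL and 567, 592 and 610 in MEC1-2B17 (log2 0.36, SE 0.036, edgeR adjusted *P* = 1.5e-07). In JVM2 the gene stood at 64.2, 58.8 and 60 CPM in CTRL and 83.2, 61.9 and 92.0 in 2B17 cells, where replicate 2 lay within the control range and the other 2 above it (log2 0.38, SE 0.12, edgeR adjusted *P* = 0.029). Without that library the log2 difference was 0.53 (edgeR adjusted *P* = 6.5e-08), whereas with any 1 of the other 5 JVM2 libraries left out the adjusted *P* was 0.057 to 0.12. *CD72*, a further inhibitory coreceptor, was low throughout, between 2.06 and 4.47 CPM. It fell in JVM2-2B17 (log2 -0.82, SE 0.22, edgeR adjusted *P* = 0.014), with an adjusted *P* of 0.05 to 0.06 without JVM2-CTRL replicate 2 or 3 and of 0.077 with DESeq2, and was not called in MEC1.

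Among the 5 kinases, 1 rose and 1 fell in MEC1-2B17, and 3 rose and 1 fell in JVM2-2B17. *SYK* (ENSG00000165025, chr9:90801787-90898549) gave the largest fall of any member in MEC1. It read 55.2, 52.9 and 56.5 CPM in MEC1-CTRL and 26.3, 24.1 and 24.7 in MEC1-2B17, with no overlap. This was 2.19-fold lower (log2 -1.13, SE 0.050, edgeR adjusted *P* = 1.8e-12). In JVM2 it read 161, 144 and 150 CPM in CTRL and 115, 125 and 125 in 2B17 cells, again with every 2B17 library below the controls (log2 -0.32, SE 0.064, edgeR adjusted *P* = 0.0026). The fall was larger in MEC1, with a difference between the effects of -0.81 (SE 0.077, edgeR adjusted *P* = 7.9e-08). An exact two-sided permutation test of the mean CPM gave *P* = 0.1 in each line, the smallest that 3 against 3 samples allow.

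*SYK* lies on the long arm of chromosome 9, where expression was lower as a whole in MEC1-2B17. Of the 470 other genes tested from 60 Mb onward on that chromosome, 336 were called lower and 14 higher in MEC1, and their median log2 difference was -0.39 (quartiles -0.57 and -0.20), whereas the 163 genes of the short arm had a median of -0.03. The *SYK* value minus the long-arm median was -0.74, and 23 of the 470 genes were lower still. Against the 48 tested genes within 5 Mb, 38 of them called lower, with a median of -0.36, the difference was -0.77. In JVM2 the long arm had a median of 0.0049 over 359 genes, 37 lower and 43 higher, and *SYK* minus that median was -0.32. The part of the whole-arm difference in the *SYK* value was not tested further. For the other 40 members, neighbouring genes within 5 Mb had medians from -0.05 to 0.09 (MEC1) and from -0.18 to 0.15 (JVM2).

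**Figure D3:**
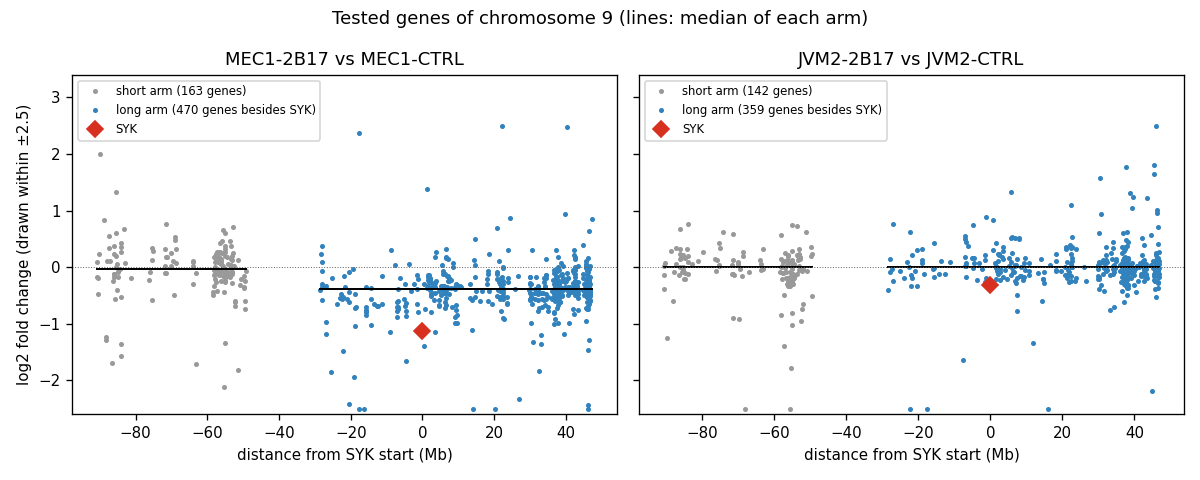
Log2 fold change of 2B17 over CTRL cells (y axis, drawn within 2.5 of 0) against distance from the start of *SYK* in Mb for each tested gene of chromosome 9 in MEC1 (left) and JVM2 (right), with black lines at the median of each arm. In MEC1 the long-arm genes centre on -0.39 and *SYK* lies at -1.13, whereas in JVM2 they centre on 0.0049 and *SYK* lies at -0.32.

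None of the 3 SRC-family kinases among the members, which start the cascade, was called lower in either line. *BLK* rose in both lines, from 192, 188 and 173 CPM to 249, 237 and 253 in MEC1 (log2 0.42, SE 0.042, edgeR adjusted *P* = 1.6e-07) and from 76.7, 68.4 and 73.3 to 119, 113 and 115 in JVM2 (log2 0.67, SE 0.063, edgeR adjusted *P* = 6e-06). The effect in MEC1 minus that in JVM2 was -0.25 (SE 0.080, edgeR adjusted *P* = 0.02), which became 0.052 to 0.073 as an adjusted *P* without MEC1-CTRL replicate 1, MEC1-2B17 replicate 2 or JVM2-CTRL replicate 2. *FYN* rose in JVM2-2B17 by 0.68 (SE 0.059, edgeR adjusted *P* = 3e-06) and was not called in MEC1 (log2 -0.04, SE 0.036), and the effects differed (-0.72, SE 0.069, edgeR adjusted *P* = 7.4e-08). *LYN* rose in JVM2-2B17 by 0.22 (SE 0.058, edgeR adjusted *P* = 0.013), with an adjusted *P* of 0.051 to 0.060 without JVM2-CTRL replicate 1 or 2. *BTK*, the kinase next to *SYK* in the cascade, was called in neither line, at -0.03 (SE 0.035) and -0.02 (SE 0.068).

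Among the 6 adaptors, 3 fell and 0 rose in MEC1-2B17, where 21.6% of all genes tested fell and 20.0% rose. In JVM2-2B17 3 rose and 0 fell, where 14.1% of all genes rose and 15.3% fell. *PIK3AP1*, the adaptor BCAP that brings phosphoinositide 3-kinase to the receptor, was called both ways. It read 605, 599 and 605 CPM in MEC1-CTRL and 367, 355 and 357 in MEC1-2B17 (log2 -0.75, SE 0.032, edgeR adjusted *P* = 1.1e-12). JVM2 cells gave 246, 244 and 238 CPM in CTRL and 272, 288 and 268 in 2B17 cells (log2 0.19, SE 0.054, edgeR adjusted *P* = 0.02), with an adjusted *P* of 0.073 to 0.092 without JVM2-CTRL replicate 2 or 3. The effects differed by -0.93 (SE 0.062, edgeR adjusted *P* = 3.8e-10). *DAPP1*, a phosphoinositide-binding adaptor, fell in MEC1-2B17 by 0.68 (SE 0.037, edgeR adjusted *P* = 2.9e-11) and was not called in JVM2 (0.23, SE 0.091, and 0.11 without JVM2-2B17 replicate 2), and *HCLS1*, a cortical actin regulator, fell in MEC1-2B17 by 0.12. *BLNK* and *LAT2* rose in JVM2-2B17 by 0.22 and 0.16, but with any 1 of the JVM2 libraries left out, replicate 2 of JVM2-2B17 excepted, the adjusted *P* was 0.053 to 0.10 for *BLNK* and 0.071 to 0.16 for *LAT2*, and DESeq2 did not call *LAT2*. *GRB2* was called in neither line.

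Among the 6 exchange factors and GTPases, 1 rose and 2 fell in each line. *VAV3*, an exchange factor for RAC GTPases (ENSG00000134215, chr1:107571161-107965180), read 34.2, 32.6 and 29.5 CPM in MEC1-CTRL and 18.0, 19.4 and 17.9 in MEC1-2B17 (log2 -0.81, SE 0.060, edgeR adjusted *P* = 2.6e-09). The JVM2 values were 1.71, 1.99 and 2.27 CPM in CTRL, from 16, 20 and 20 counts, and 40.4, 46.9 and 41.2 in 2B17 cells. It was thus lowest in JVM2-CTRL, with a 21.4-fold gain (log2 4.42, SE 0.14, edgeR adjusted *P* = 3e-10) and a difference between the lines of -5.23 (SE 0.16, edgeR adjusted *P* = 1.3e-15). *VAV1*, the haematopoietic relative, was called in neither line, at 0.03 (SE 0.039) and -0.09 (SE 0.065).

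*RASGRP1*, a diacylglycerol-activated exchange factor for RAS, fell in both lines. It was low in MEC1, at 2.33, 3.12 and 2.37 CPM in CTRL and 1.60, 1.25 and 1.26 in 2B17 cells (log2 -0.92, SE 0.17, edgeR adjusted *P* = 2e-04), and read 56.9, 53.4 and 49.9 against 35.3, 31.4 and 37.4 in JVM2 (log2 -0.62, SE 0.086, edgeR adjusted *P* = 0.00017). The effects were not shown to differ (-0.29, SE 0.18, edgeR adjusted *P* = 0.24), and 16.1% of its exon bases lie opposite an antisense gene, from which reads cannot be told apart since the strand setting of the counting was not stated. *SOS1*, a further RAS exchange factor, read 22.3, 22.4 and 21.4 CPM in MEC1-CTRL and 23.3, 25.8 and 24.3 in MEC1-2B17 (log2 0.15, SE 0.054, edgeR adjusted *P* = 0.034). In JVM2 the gene stood at 44.9, 44 and 55 CPM in CTRL and 39.1, 31.8 and 40.1 in 2B17 cells (log2 -0.37, SE 0.11, edgeR adjusted *P* = 0.023). Its MEC1 call was lost with any 1 MEC1 library left out, MEC1-2B17 replicate 1 excepted (adjusted *P* 0.053 to 0.13) and its JVM2 call without JVM2-CTRL replicate 3 (0.13), while the difference between the lines passed (0.52, SE 0.12, edgeR adjusted *P* = 0.0022). *RAC2*, the haematopoietic RAC GTPase, was at 246 CPM in JVM2-2B17 replicate 2 against 436 and 419 in the other 2 replicates, and its log2 difference was -0.24 (SE 0.16) with and -0.01 without that library.

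Among the 7 lipid, calcium and NFAT genes, 6 fell and 0 rose in MEC1-2B17, where 21.6% of all genes tested fell and 20.0% rose. In JVM2-2B17 2 rose and 2 fell, where 14.1% of all genes rose and 15.3% fell. *NFATC1*, a calcineurin-dependent transcription factor, fell in both lines. It read 16.0, 16.2 and 17.1 CPM in MEC1-CTRL and 9.17, 9.05 and 10.5 in MEC1-2B17 (log2 -0.79, SE 0.071, edgeR adjusted *P* = 3.6e-08). In JVM2 it read 12.5, 14.6 and 12.9 CPM in CTRL and 7.25, 7.26 and 9.12 in 2B17 cells (log2 -0.77, SE 0.14, edgeR adjusted *P* = 0.0011). The difference between these effects was -0.01 (SE 0.15, edgeR adjusted *P* = 0.96).

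Its relative *NFATC2* moved in opposite directions. It read 35.5, 36.3 and 34.1 CPM in MEC1-CTRL and 27.9, 30.5 and 31.3 in MEC1-2B17 (log2 -0.24, SE 0.052, edgeR adjusted *P* = 0.00088). JVM2 cells gave 14.5, 13.6 and 11.4 CPM in CTRL and 21.8, 14.5 and 20.5 in 2B17 cells, with replicate 2 next to the controls (log2 0.53, SE 0.15, edgeR adjusted *P* = 0.021). Without that library the difference was 0.69 (edgeR adjusted *P* = 2.8e-05), and without JVM2-CTRL replicate 2 or 3 or JVM2-2B17 replicate 1 or 3 the adjusted *P* was 0.058 to 0.095. The effects in the lines differed by -0.77 (SE 0.15, edgeR adjusted *P* = 0.00049).

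*ITPR2*, a calcium release channel of the endoplasmic reticulum, gave small opposite calls. It read 282, 246 and 234 CPM in MEC1-CTRL and 227, 239 and 210 in MEC1-2B17, which overlapped (log2 -0.18, SE 0.056, edgeR adjusted *P* = 0.017), and 716, 728 and 770 against 821, 836 and 847 in JVM2 (log2 0.18, SE 0.053, edgeR adjusted *P* = 0.023). The MEC1 call was lost without MEC1-CTRL replicate 1 or MEC1-2B17 replicate 3 (adjusted *P* 0.12 to 0.15) and with DESeq2 (0.18), and the JVM2 call without JVM2-CTRL replicate 1 or 2 or JVM2-2B17 replicate 3 (0.063 to 0.11). *PLCG2*, *STIM1* and *PIK3R1* fell in MEC1-2B17 by 0.21, 0.26 and 0.10, and none of the 3 was called in JVM2. Of the *PLCG2* exon bases, 22.6% lie in a non-coding gene on the same strand, so its reads are less certain. The *PIK3R1* call was lost without MEC1-CTRL replicate 1 or 2 or MEC1-2B17 replicate 2 or 3 (adjusted *P* 0.054 to 0.18). *PIK3CD*, the lymphocyte catalytic subunit of phosphoinositide 3-kinase, fell in JVM2-2B17 by 0.33 (SE 0.059, edgeR adjusted *P* = 0.0011) and was not called in MEC1 (-0.08, SE 0.035).

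In the NF-kB branch, *MALT1*, a protease that works with *BCL10*, rose in MEC1-2B17 by 0.23 (SE 0.040, edgeR adjusted *P* = 0.00013). *BCL10* and *PRKCB* were not called in MEC1, and none of the 3 was called in JVM2, where the log2 differences lay between 0.04 and 0.11. Without JVM2-2B17 replicate 2 they were 0.0064 for *MALT1*, -0.0077 for *BCL10* and 0.06 for *PRKCB*.

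All 7 phosphatases and brakes were called in MEC1, 6 lower and 1 higher in MEC1-2B17, where 21.6% of all genes tested were lower and 20.0% higher. In JVM2 1 was lower and 1 higher, where 15.3% of all genes were lower and 14.1% higher. *PTPRC*, the CD45 phosphatase, is among the 6 lower in MEC1-2B17. It removes the inhibitory phosphate from SRC-family kinases, so it is counted here as a phosphatase and not as a brake. *PTPRC* fell in both lines. It read 270, 265 and 262 CPM in MEC1-CTRL and 156, 152 and 149 in MEC1-2B17 (log2 -0.81, SE 0.035, edgeR adjusted *P* = 1.7e-12). The JVM2 values were 265, 287 and 275 CPM in CTRL and 206, 232 and 198 in 2B17 cells (log2 -0.38, SE 0.066, edgeR adjusted *P* = 0.001). The fall was larger in MEC1, with a difference of -0.43 (SE 0.077, edgeR adjusted *P* = 0.00024).

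*CBLB* and *CBL*, related ubiquitin ligases that mark activated receptors and kinases for turnover, moved apart in MEC1. *CBLB* rose in both lines, from 159, 151 and 142 CPM to 191, 192 and 191 in MEC1 (log2 0.34, SE 0.040, edgeR adjusted *P* = 1.1e-06), and from 123, 133 and 123 to 224, 152 and 219 in JVM2 (log2 0.65, SE 0.12, edgeR adjusted *P* = 0.0014). Replicate 2 of JVM2-2B17 was the lowest of its arm but above the controls, and without it the JVM2 difference was 0.81 (edgeR adjusted *P* = 9.5e-13). The difference between the lines was -0.31 with that library (SE 0.13, edgeR adjusted *P* = 0.079) and -0.46 without it (edgeR adjusted *P* = 5.3e-06). *CBL* fell in MEC1-2B17 by 0.34 (SE 0.039, edgeR adjusted *P* = 8.8e-07). *DOK3*, *INPP5D* (the lipid phosphatase SHIP1), *PTPN6* (the tyrosine phosphatase SHP-1) and *CSK*, which phosphorylates the inhibitory tyrosine of SRC-family kinases, fell in MEC1-2B17 by 0.46, 0.39, 0.29 and 0.13. The *CSK* call was lost without MEC1-2B17 replicate 1 (adjusted *P* 0.068), and these 4 genes and *CBL* were not called in JVM2, where *DOK3* was -0.04 with and 0.13 without JVM2-2B17 replicate 2.

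A wider list of 64 other pathway genes, compiled from general knowledge, held 62 in the MEC1 table and 60 in the JVM2 table. In MEC1, 8 of the 62 tested were higher and 35 lower in MEC1-2B17 (median log2 difference -0.14), where 20.0% of all genes tested were higher and 21.6% lower. In JVM2 11 of the 57 tested were higher and 14 lower (median -0.05), where 14.1% and 15.3% of all genes were. The JVM2 counts were 4 higher and 9 lower without JVM2-CTRL replicate 3, 5 and 12 without JVM2-CTRL replicate 2, 6 and 12 without JVM2-CTRL replicate 1, 6 and 14 without JVM2-2B17 replicate 1, 5 and 13 without JVM2-2B17 replicate 3, and 6 and 12 with DESeq2. Calls among all genes fell there too, from 1830 higher and 1991 lower to 1281 to 1623 higher and 1406 to 1928 lower. These were of 13182 to 13309 genes tested, and of 16146 with DESeq2. Without JVM2-2B17 replicate 2 the list had 13 higher and 16 lower and a median of 0.01. Of all 13306 genes, 2172 were higher and 2369 lower there. Genes of the list that passed at 2-fold or more in MEC1 were *FOS*, *BANK1*, *PAG1* and *FCGR2B*, all lower, and *DOK2*, higher. *FCGR2B*, the inhibitory Fc receptor, read 78.7, 73.3 and 75 CPM in MEC1-CTRL and 33.1, 32.1 and 32.9 in MEC1-2B17 (log2 -1.21, SE 0.043, edgeR adjusted *P* = 1.1e-13), with no overlap. *BANK1*, a B-cell scaffold protein, read 48.0, 48.2 and 43.5 against 18.0, 17.9 and 18.6 CPM (log2 -1.36, SE 0.053, edgeR adjusted *P* = 4.1e-13). In JVM2, *LCK*, a SRC-family kinase, fell from 34.7, 32.4 and 31.4 CPM to 15.5, 15.6 and 13.3 (log2 -1.15, SE 0.095, edgeR adjusted *P* = 2.3e-06), again with no overlap. The immediate-early factor *FOS* (log2 -2.06, SE 0.26, edgeR adjusted *P* = 3e-06) and the adaptor *PAG1* (-1.23, SE 0.11, edgeR adjusted *P* = 5.5e-08) were low in MEC1-CTRL, at 2.73 to 4.74 CPM and at a mean of 4.96 ± 0.174 (SD, n = 3), and the adaptor *DOK2* (1.77, SE 0.30, edgeR adjusted *P* = 0.00011) was at 0.25 to 0.303 CPM in MEC1-CTRL.

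The control cells of the lines were also compared with each other. Of the 41 members, 37 passed between MEC1-CTRL and JVM2-CTRL, 21 higher and 16 lower in MEC1-CTRL, where 81.1% of 14705 genes did (41.3% higher, 39.8% lower), so the share called is close to that of all genes. The median log2 difference was 0.13 for the members and 0.04 for all genes. Here line, construct, antibiotic and depth, and possibly the sequencing site, cannot be told apart, and these samples are also the controls of the comparisons above. Of the wider list, 23 of 60 were higher and 30 lower, but 29 were higher and 22 lower when libraries were scaled by their size alone, a scaling that moved the median of all genes from 0.04 to 0.20. Calls among all 14705 genes moved as well, from 6075 higher and 5857 lower to 7243 higher and 4861 lower.

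The 5 largest excesses in MEC1-CTRL were *CR2*, *VAV3*, *CD22*, *LAT2* and *FYN*. *CR2* averaged 469 ± 16.2 CPM (SD, n = 3) in MEC1-CTRL and 16.4 ± 1.48 in JVM2-CTRL (28.7-fold, log2 4.84, SE 0.063, edgeR adjusted *P* = 6e-24). *VAV3* averaged 32.1 ± 2.40 and 1.99 ± 0.281 CPM (log2 4.02, SE 0.13, edgeR adjusted *P* = 6.9e-17). *CD22* averaged 459 ± 17.3 and 61.0 ± 2.83 CPM (log2 2.92, SE 0.051, edgeR adjusted *P* = 9.5e-22). These exceeded the spread between replicates many times over. *LAT2*, a transmembrane adaptor, was 4.13-fold and *FYN* 3.69-fold higher.

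The 5 largest deficits in MEC1-CTRL were *RASGRP1*, *PRKCB*, *RAC2*, *HCLS1* and *ITPR2*. *RASGRP1* averaged 2.60 ± 0.444 CPM in MEC1-CTRL and 53.4 ± 3.53 in JVM2-CTRL (20.5-fold lower, log2 -4.36, SE 0.098, edgeR adjusted *P* = 6.3e-20). *PRKCB*, the protein kinase C that feeds NF-kB, averaged 116 ± 1.96 and 414 ± 7.61 CPM (3.57-fold lower). *RAC2*, *HCLS1* and *ITPR2* were 3.29-fold, 3-fold and 2.90-fold lower. *SYK* followed, 2.76-fold lower in MEC1-CTRL (log2 -1.46, SE 0.045, edgeR adjusted *P* = 1.8e-17). The receptor chains ran opposite ways, with *CD79A* 2.42-fold lower and *CD79B* 2.22-fold higher in MEC1-CTRL. *BTK*, *VAV1*, *PTPRC* and *CSK* were not called, with log2 differences of -0.06 to 0.05 and SEs of 0.044 to 0.048. With library-size scaling, *VAV1* (0.14, edgeR adjusted *P* = 0.0088), *PTPRC* (0.11, edgeR adjusted *P* = 0.028) and *CSK* (0.21, edgeR adjusted *P* = 0.00028) passed, all higher in MEC1-CTRL. *CSK* also passed at an adjusted *P* of 0.019 with at least 10 counts in every library, and of 0.048 without JVM2-CTRL replicate 1, where the log2 difference was 0.09.

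**Figure D4:**
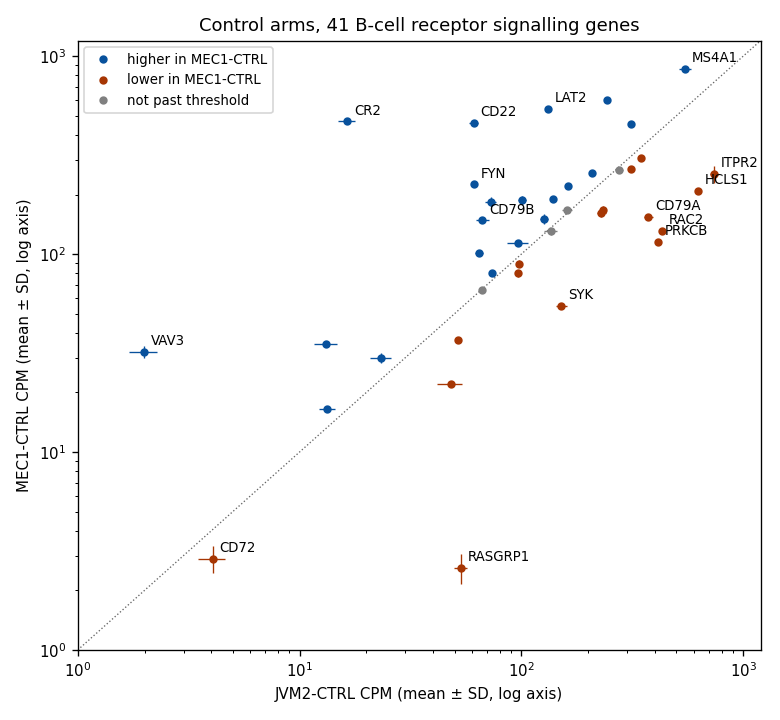
Mean CPM ± SD (n = 3) of each of the 41 genes in JVM2-CTRL (x axis) and MEC1-CTRL (y axis), both on log axes, with a dotted line of equal level and colours for the call between the arms. *CR2*, *VAV3*, *CD22*, *LAT2* and *FYN* lie farthest above the line and *RASGRP1* farthest below it.

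Levels per kilobase of exon used the length of all annotated exons of a gene joined together, and the order of genes depends on that choice. On this scale, *MS4A1* (181), *LAT2* (119), *CD79A* (115) and *PIK3AP1* (106) stood highest among the members in MEC1-CTRL. In JVM2-CTRL the order was *CD79A* (278), *RAC2* (166), *HCLS1* (123) and *MS4A1* (115). The lowest were *RASGRP1* in MEC1-CTRL (0.196) and *VAV3* in JVM2-CTRL (0.272). *SYK* stood at 10.5 in MEC1-CTRL, 4.81 in MEC1-2B17, 29.1 in JVM2-CTRL and 23.4 in JVM2-2B17, while *BTK* stood between 16.3 and 17.4 in all 4 groups.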

How the data were processed

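RNA of 12 cell-line samples (3 replicates of each of 4 groups) had been trimmed with Trimmomatic, aligned to hg38 with TopHat2 2.0.14 and counted per Ensembl gene with HTSeq by the authors (MUGQIC 1.3 pipeline). The annotation release and strand setting are not given in the sources used here. The deposited raw counts, 1 table for each line, were used. The 12 deposited columns of rounded normalized values and the authors' own log2 fold changes and *P*-values were not.

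Each line was fitted alone with edgeR 4.0.16 (R 4.3.3, TMM scaling, filterByExpr at a minimum count of 10 and total of 15, quasi-likelihood F-test), the interaction over all 12 libraries and the control arms over 6, for genes in both tables. All genes of a fit entered its Benjamini-Hochberg adjustment, and calls were made below 0.05. SEs were derived from F. Fold changes come from these fits, CPM from TMM scaling of all 12 libraries together. Common biological variation was 4.22% in MEC1 and 6.92% in JVM2, and replicate pairs differed beyond sampling noise (mean chi-square per gene 2.136 to 7.894). Scripts were tested on simulated data.

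Members, roles and lists were chosen with earlier results of these data known. Genes were named by rule, those called at 2-fold or more in either line or called in both, plus *SYK*, *CD79A* and *CD79B*, between control arms the 5 largest differences each way, and of the wider list those called at 2-fold or more. Those named for the differences between arms of the 41 genes are given with every sample's value, the others with values, ranges, means or folds. *RAC2* and other members given with single values were added after these were seen. A few results are not reported here. Alternatives were RLE and library-size scaling, DESeq2 1.42.0, agreement of edgeR's exact test with DESeq2, other filters (with at least 10 counts required in every library, *CR2* was not tested in JVM2 or for the interaction), a replicate block, a single fit, thinned MEC1 counts, and each library left out in turn. Promoters are those of RefSeq, with the start farthest upstream among its listed starts for each gene, which can lie inside the GENCODE gene.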

Additional observations from a re-analysis of the deposited data

Results flagged for a closer look

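The difference between arms was not the same in MEC1 and JVM2 for 21 of the 41 genes, by the test of the difference itself (interaction of line and arm, edgeR adjusted *P* below 0.05; 32.0% of all genes tested passed it). The log2 difference in MEC1 minus that in JVM2 was above 0 for *CR2* (6.41), *CD79A* (0.68), *SOS1* (0.52) and *PIK3CD* (0.26). It was below 0 for *VAV3* (-5.23), *MS4A1* (-0.97), *PIK3AP1* (-0.93), *DAPP1* (-0.91), *SYK* (-0.81), *NFATC2* (-0.77), *FYN* (-0.72), *PTPRC* (-0.43), *DOK3* (-0.42), *ITPR2* (-0.35), *BLNK* (-0.29), *BLK* (-0.25), *INPP5D* (-0.25), *PTPN6* (-0.24), *STIM1* (-0.23), *LYN* (-0.21) and *LAT2* (-0.18). Of these, *LYN*, *BLK*, *STIM1*, *LAT2* and *DOK3* lost the call when some single library was left out, with adjusted *P* of up to 0.10, 0.073, 0.054, 0.077 and 0.15. The MEC1 arms differ in construct and antibiotic as well, which cannot be told apart from the line.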

How the results depend on the processing

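Counts of members past the threshold depended most on single JVM2 libraries. With 1 library left out, 24 to 28 members were called in MEC1 (6 to 7 higher, 18 to 22 lower), 13 to 21 in JVM2 (5 to 12 higher, 6 to 9 lower), 17 to 25 for the difference between the lines (4 to 5 higher, 13 to 20 lower) and 35 to 38 between control arms (20 to 22 higher, 14 to 16 lower). Calls among all genes then numbered 5936 to 6606, 2687 to 4541, 4231 to 5063 and 11246 to 11710. With all libraries they numbered 6909, 3821, 4848 and 11932. JVM2 fell to 5 members higher without JVM2-CTRL replicate 2, and to 7 without JVM2-CTRL replicate 1 or 3 or JVM2-2B17 replicate 3. Higher calls among all genes fell as well, from 1830 to 1290 without JVM2-CTRL replicate 2 and to between 1281 and 1623 without the others. Of the members called, 22 of 27 in MEC1, 11 of 21 in JVM2, 16 of 21 for the difference and 32 of 37 between control arms stayed past the threshold in every setting run. The like shares of all genes are not given here. When libraries were scaled by size alone, 3 differences between control arms changed sign: *VAV1* to 0.14, *PTPRC* to 0.11 and *STIM1* to 0.038. DESeq2 called 24, 19, 22 and 37 members in the 4 comparisons and did not call *PIK3R1*, *SOS1* and *ITPR2* in MEC1 or *CD72* and *LAT2* in JVM2. Of all genes it called 5727 of 18522, 2996 of 16146, 4756 of 16050 and 11577 of 16050. With the replicate block the counts were 27, 21, 21 and 37, against 6897 of 16581, 4236 of 13021, 5083 of 15130 and 11886 of 14705 genes. Deviations of equally numbered libraries correlated at 0.179, 0.22 and -0.024 in JVM2 and at -0.133, -0.081 and 0.127 in MEC1. Those of unequally numbered libraries correlated at -0.224 to 0.161 in JVM2 and at -0.121 to 0.222 in MEC1. Whether the replicate numbers pair the samples is not settled by these values. The lower JVM2 depth, with 2 to 4 counts for *CR2* in JVM2-2B17, limits precision there.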
